A study of Arabidopsis thaliana with 12 samples.

Results

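AOX1D (AT1G32350), a nuclear gene for a mitochondrial alternative oxidase, and PHT3;2 (AT3G48850), a nuclear gene for a mitochondrial phosphate carrier, were followed in roots exposed to gold. Every gene described as an alternative oxidase in the deposited tables was added to them, which brought in AOX1A (AT3G22370). The 3 genes have 3 of the 800 gene features and 14 of the 4977 exon features of these tables. They were chosen by the same averages of gold and control roots that are given here, so all values below are descriptions and carry no test.

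The gold group consisted of roots of 12 day old Col-0 seedlings. Their nutrient solution was replaced for 12 h by water with gold at 10 ppm, at pH 4.2. The control group consisted of roots of the same age kept in distilled water at that pH, so that nutrient medium was absent from both groups. The labels spell the gold compound HAuClO4 and the methods HAuCl4. Each group had 3 biological replicates, and every replicate pooled the roots of many seedlings. The 6 AraGene-1_0-st arrays were summarized once per gene and once per exon, which makes the 12 samples. A gene feature is a signal summarized over all probes of a gene, and an exon feature is one over the probes of a single exon region. The tables hold 1 average of log2 signal per group and list only features that the authors' criteria kept, a change beyond 2-fold with a p-value under 0.05. Every listed difference has therefore passed the authors' own test over the replicates. That p-value was not adjusted for the number of features tested, so false calls can remain among single listed features. Single arrays were not used here, so the size of the spread between replicates is not given and no test was added. Because nothing but listed features can be read, the root origin of the RNA could not be checked against marker genes. Whole roots were assayed, and more RNA per cell cannot be told apart from more cells of an expressing type.

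Plant mitochondria can pass electrons from the ubiquinol pool straight to oxygen through alternative oxidase, a path that skips the proton-pumping cytochrome complexes and therefore yields less ATP. AOX1A is the best known stress-responsive member of the family in Arabidopsis, and AOX1D is a further stress-responsive one. The PHT3 proteins bring phosphate into the mitochondrial matrix, where ATP synthase uses it. Nuclear genes that respond to disturbed mitochondria are part of what is called retrograde signalling, in which membrane-bound NAC factors such as ANAC017 take part.

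AOX1D, on chromosome 1, had the largest difference of the 3 genes. Its gene feature averaged 9.09 in gold roots and 5.74 in control roots on the log2 scale. The difference of 3.35 corresponds to a 10.2-fold higher signal in gold roots. AOX1A, on chromosome 3, averaged 8.73 in gold roots and 7.28 in control roots, a difference of 1.45 on the log2 scale or 2.73-fold. The phosphate carrier gene PHT3;2, also on chromosome 3, averaged 7.36 in gold roots and 5.75 in control roots, which is a difference of 1.61 on the log2 scale or 3.05-fold. All 3 gene features were thus higher in gold roots, against 65.4% of the 800 gene features of the table and 66.6% of the 629 among them that name a locus. Only AOX1D lay at or beyond a difference of 2 on the log2 scale, as 10.6% of the gene features did in this direction. The log2 difference of AOX1D was 1.90 larger than that of AOX1A and 1.74 larger than that of PHT3;2, while the differences of PHT3;2 and AOX1A lay 0.16 apart. Whether these gaps exceed the spread between replicates cannot be said without the single arrays.

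**Figure D1:**
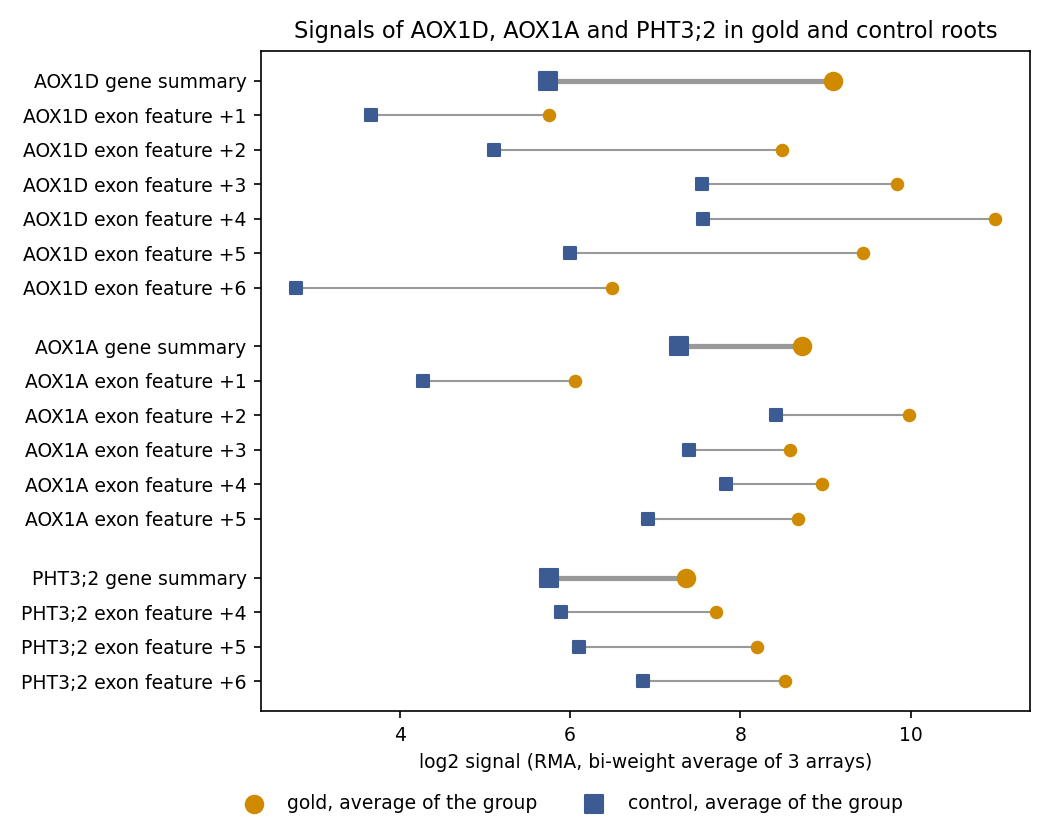
Log2 signal on the x axis of the gene summary (large symbols) and of each listed exon feature (small symbols) of AOX1D, AOX1A and PHT3;2, with circles for the average of the gold roots and squares for the average of the control roots; the number after the plus sign is the feature's number counted from that of its gene. The circle lies to the right of the square for all 3 genes and all 14 exon features, and the gap is widest in AOX1D, where the gene summary reads 9.09 in gold and 5.74 in control roots.

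Ordered by their difference, AOX1D took position 10 among the 419 gene features that name a locus and were higher in gold roots. Just above it came AT1G80160, described as a glyoxalase I-like protein, with averages of 10.56 in gold and 7.18 in control roots and a difference of 3.38. Just below it came CYP71A12, a cytochrome P450, with 6.86 in gold and 3.55 in control roots and a difference of 3.31. Neighbours this close cannot be put in a firm order without the spread of the arrays.

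The phosphate carrier gene held position 137 of the same 419, between RK3, a receptor kinase with a difference of 1.62, and UGT75B1, described as an indole-3-acetate glucosyltransferase, with 1.60. AOX1A held position 183, and 6 other features had the same difference of 1.45. The median difference of all gene features that were higher in gold roots was 1.39, so AOX1A lay close to that median, the phosphate carrier gene somewhat above it and AOX1D near the upper end.

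**Figure D2:**
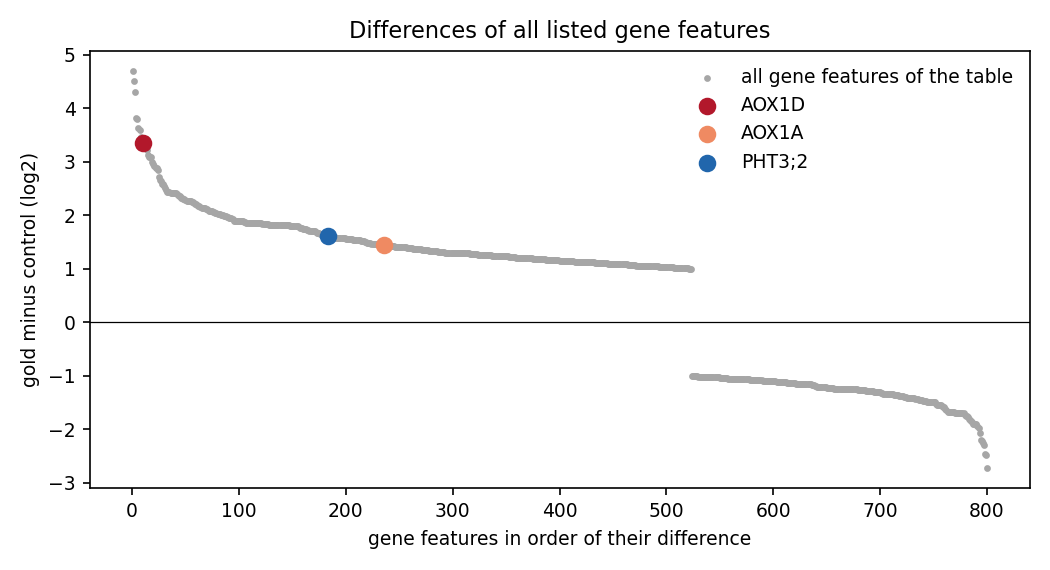
Difference of the gold and the control average (log2, y axis) of all 800 gene features in descending order (x axis), with AOX1D, AOX1A and PHT3;2 as large coloured points. AOX1D lies on the steep upper end at 3.35 and the others on the flat part at 1.45 and 1.61; the empty band around 0 is the range below the listing criterion, whose smallest listed size is 1.00.

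All 6 listed exon features of AOX1D were higher in gold roots. In the order of their numbering, the first averaged 5.75 in gold and 3.66 in control roots, and the second 8.49 in gold and 5.11 in control roots. The third averaged 9.84 in gold and 7.55 in control roots, and the fourth 10.99 in gold and 7.56 in control roots. The fifth averaged 9.44 in gold and 6.00 in control roots, and the sixth 6.49 in gold and 2.78 in control roots. The log2 differences fell into a lower pair, 2.09 for the first and 2.29 for the third feature, and an upper set of 4 from 3.38 to 3.71 for the rest. As fold changes these run from 4.26 to 13.1. The sixth feature, with the largest difference, took position 54 among the 2715 exon features that were higher in gold roots.

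AOX1A was higher in gold roots in all 5 of its listed exon features. The first averaged 6.06 in gold and 4.27 in control roots, and the second 9.98 in gold and 8.42 in control roots. The third averaged 8.58 in gold and 7.40 in control roots, the fourth 8.96 in gold and 7.83 in control roots, and the fifth 8.68 in gold and 6.92 in control roots. Its log2 differences ran from 1.13 to 1.79, all smaller than the smallest one of AOX1D. The value of 1.13 is the member feature closest to the listing criterion, and what lies below that criterion is not in the tables.

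For the phosphate carrier gene, 3 exon features were listed. They averaged 7.71, 8.19 and 8.53 in gold roots, against 5.89, 6.11 and 6.86 in control roots. The log2 differences of 1.82, 2.08 and 1.67 all lay above the 1.61 of the gene summary. The same held for 41 of the 239 genes (17.2%) that were higher in gold roots at the gene level and had 3 or more listed exon features. With fewer listed features, fewer have to lie above the summary. The share was not matched to the 3 features of the phosphate carrier gene. These 3 features carry the fourth to sixth number after that of the gene, and 3 numbers before them are not listed. Features are numbered upward from their own gene, with no other listed gene in between, for 99.6% of the 4900 exon features with a chromosome. AOX1D had every number from the first to the sixth listed, and AOX1A from the first to the fifth. Whether unlisted numbers follow the last listed one of a gene was not examined. The signal of the unlisted numbers, and where the features lie along the transcript, were not analysed here.

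In total 14 of 14 member exon features were higher in gold roots, against 54.6% of all listed exon features. At or beyond a difference of 2 on the log2 scale lay 7 of them, against 11.1%. Of these 7, 6 belong to AOX1D and 1 to PHT3;2. Exon features of one gene are not independent, and the members were chosen from this same comparison. These shares therefore show no excess for the members as a set. One direction within a gene was not particular to these members. In all 239 genes of the kind just described, every listed exon feature was higher in gold roots. In AOX1D all 6 lay beyond 2. Of the 73 genes among them with 6 or more listed exon features, 8 had all of them at or beyond this difference, AOX1D included. The features of AOX1D also spanned 1.62 on the log2 scale. A wider range was found in 9.21% of the 239 genes and in 3 of the 24 others with the same number of features. A small gene difference leaves less room for a range, because smaller exon changes are not listed. Among the 239 genes with gene differences from 3.26 to 3.62, the range was wider in AT3G13630 (3.28), THA1 (4.06) and PDR12 (1.86). It was narrower in AT1G80160 (1.01), CYP71A12 (1.29) and GSTU24 (0.22). The range was 0.66 in AOX1A and 0.41 in the phosphate carrier gene, against a median range of 0.68 over the 239 genes. Among genes with the same number of listed features, the median range was 0.69 for AOX1A and 0.40 for the phosphate carrier gene. Both ranges were thus ordinary for that number.

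**Figure D3:**
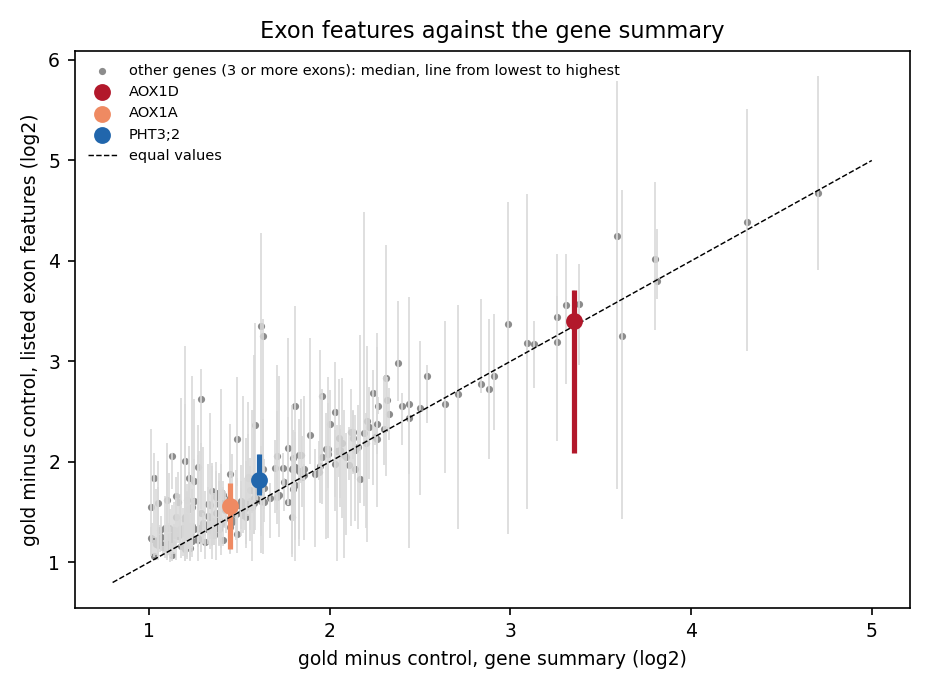
Difference of gold and control averages of the listed exon features (y axis, log2; point for the median, line from the lowest to the highest) against that of the gene summary (x axis, log2) for the genes with 3 or more listed exon features that were higher in gold roots. AOX1D lies close to the dashed line of equal values with a long lower arm down to 2.09, and all exon features of PHT3;2 lie above that line.

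AOX1D and AOX1A were the members of the alternative oxidase family in the tables. AOX1B, AOX1C and AOX2 had 0 gene and 0 exon features listed, and so had the plastid terminal oxidase, a relative in the chloroplast. Of the 3 mitochondrial phosphate carriers, PHT3;1 and PHT3;3 were not listed. An unlisted gene may have changed by less than the criteria, varied too much between arrays or had no feature of its own on the array. Which of these holds cannot be read from the tables. AOX1B is the next protein-coding gene to AOX1A in the RefSeq gene order (TAIR10.1), so a listed and an unlisted oxidase gene lie side by side. Of the other direct neighbours of the 3 members in that order, only AT1G32360, next to AOX1D and described as a CCCH zinc finger protein, had a listed feature, a single exon with 6.94 in gold and 5.93 in control roots. Whether probes of AOX1D and AOX1A also bind RNA of their relatives was not tested.

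Genes that work beside the alternative oxidases or respond to the same signals were taken from 10 lists with 63 genes in all, the members included. Apart from the 3 members, 3 of the other 60 genes had a listed gene feature, all higher in gold roots, 7 had listed exon features without a gene feature, and 50 had neither. Of the 27562 protein-coding loci in the RefSeq annotation, which may differ from the genes on the array, 2.30% had a listed gene feature, 7.41% had exon features alone and 9.71% had either. The 10 listed genes had 16 exon features, of which 15 were higher and 1 was lower in gold roots, against 54.6% higher among all exon features. Exon features of one gene mostly share a direction and are not independent. The lists were chosen with results of these data known, and no test was made of these counts.

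Among the respiratory partners, the type II NAD(P)H dehydrogenases feed electrons into the ubiquinone pool without pumping protons. NDA1 and NDA2 face the mitochondrial matrix. NDA2 had 2 of its exon features listed, with 7.64 and 8.69 in gold roots, against 6.05 and 7.51 in control roots. NDA1 had one with 4.64 in gold and 2.85 in control roots. NDB4 had one in the other direction, at 2.90 in gold and 4.90 in control roots. The features of NDA1 and NDB4 stayed below a log2 signal of 6 in both groups, a level taken as low here. No gene of this list had a listed gene feature.

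The ADP/ATP carriers exchange the nucleotides that oxidative phosphorylation turns over, and 1 exon feature of AAC3 was listed, with 8.03 in gold and 7.00 in control roots. The 6 uncoupling and dicarboxylate carriers, the 5 genes for cytochrome c and subunits of cytochrome c oxidase, and the 9 phosphate transporters of the PHT1 family, which take up phosphate at the plasma membrane, had 0 listed features. As 9.71% of the annotated loci had a listed feature, lists of 6, 5 or 9 genes can hold 0 listed genes without differing from other loci. The gene for the mitochondrial phosphate carrier was chosen with earlier results of these data known. Its listing beside 0 listed PHT1 genes therefore shows no contrast between the carrier families.

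Of the 11 regulators of mitochondrial stress genes, 1 was listed, which is close to the 9.71% of annotated loci with a listed feature. ABO3, which is WRKY63, averaged 5.30 in gold and 4.03 in control roots at the gene level, a low signal in both groups. Its 2 listed exon features were far brighter, at 10.71 and 10.89 in gold roots, against 9.17 and 9.41 in control roots. ANAC017, ANAC013 and WRKY40 had 0 features in the tables.

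The list of 13 mitochondrial stress-responsive genes had 5 with a listed feature, where 9.71% of the annotated loci had one. The 9 exon features of these 5 genes were higher in gold roots, as 54.6% of all exon features were. HSP23.6-MITO, a small heat shock protein of mitochondria, averaged 8.55 in gold and 7.28 in control roots at the gene level. CYP81D8, a cytochrome P450, averaged 4.70 in gold and 3.63 in control roots, again a low signal. Its 2 listed exon features were brighter, at 7.98 and 9.34 in gold roots, against 6.26 and 8.21 in control roots. AT5G51440 (HSP23.5), a further mitochondrial small heat shock protein, was listed by exon features alone, with log2 differences of 1.08 and 1.11. UGT74E2, a glucosyltransferase acting on indole-3-butyric acid, had 1 exon feature with 8.37 in gold and 5.92 in control roots. AT2G41730 had 1 with 8.69 in gold and 6.53 in control roots. UPOX and OM66, which are widely used markers of mitochondrial dysfunction, had no listed feature.

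**Figure D4:**
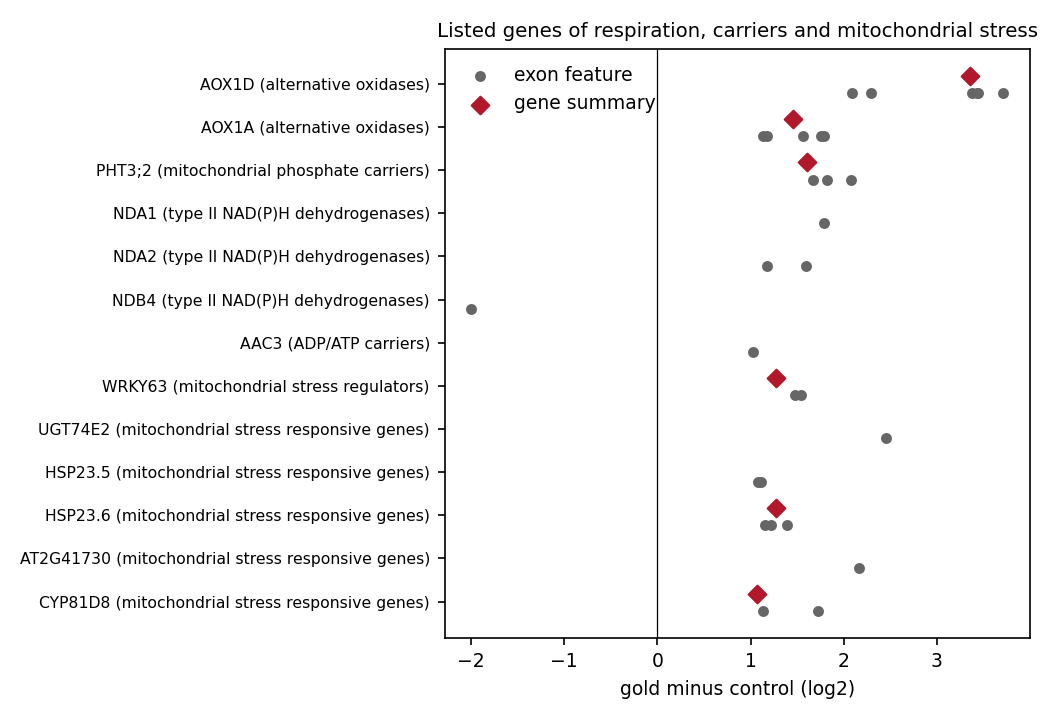
Difference of gold and control averages (log2, x axis) of every gene of the 10 lists that has a listed feature, with diamonds for the gene summary and dots for exon features; the list of each gene stands in parentheses. All points lie to the right of 0 except the exon feature of NDB4, and AOX1D reaches farthest to the right.

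The gene features whose pair of averages came nearest to that of a member were taken by the distance over the 2 log2 averages. Those nearest to AOX1D were GSTU24, a tau class glutathione transferase, with 8.93 in gold and 5.67 in control roots, AT1G71140, a MATE efflux protein, with 8.86 in gold and 5.77 in control roots, and AT4G03410, a protein of the Mpv17/PMP22 family, with 9.08 in gold and 5.99 in control roots. For PHT3;2 they were HSP18.2 with 7.36 in gold and 5.77 in control roots, Hsp70b with 7.35 in gold and 5.78 in control roots, and PDF1.4, a defensin-like protein, with 7.43 in gold and 5.63 in control roots. With 2 averages per gene, likeness means no more than similar brightness in both groups.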

How the data were processed

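Total RNA of gold-treated and control roots was hybridised to AraGene-1_0-st arrays. RMA summaries per gene and per exon were made by the authors in Expression Console, and the deposited log2 signals are bi-weight averages over the 3 arrays of a group, written by the Transcriptome Analysis Console with the tair10 annotation. The deposited tables also hold the authors' fold changes, p-values and FDR, which were not used. From the averages the difference of gold and control was computed, and fold changes are 2 to the power of that difference. Members were found by symbol, locus or the words alternative oxidase, and list genes by locus, all 63 of which are in the RefSeq annotation TAIR10.1 used for names and gene order. The genes named by rule are the members, the listed genes of the lists, the neighbours in the order of differences and the 3 gene features nearest in both averages. Others were named without a fixed rule: some unlisted genes of the lists, neighbours in the gene order and some genes matched by words for respiration. AOX1D, PHT3;2 and the lists were chosen with earlier results of these data known. The computation was tested on simulated data. Python 3.11.15, numpy 2.4.6, pandas 2.3.3 and matplotlib 3.10.9 were used. Depth is not a property of arrays, and the number of arrays limits the precision.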

Additional observations from a re-analysis of the deposited data

How the results depend on the processing

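No setting could turn the direction of a member, because every listed feature of the members was higher in gold roots. Taken over the listed exon features instead of the gene summary, the log2 difference of AOX1D was 3.405 as a median, 3.43 as a median of features with a signal of at least 6 and 3.06 as a mean. That of AOX1A was 1.56, 1.56 and 1.48, and that of PHT3;2 was 1.82, 1.82 and 1.86. The exon tables list only features past the criteria, so these medians leave out smaller changes by construction. The count of 14 member exon features higher in gold roots was 14 by locus alone, 13 with a signal of at least 6 and 7 with a difference of at least 2. AOX1D kept position 10 over all gene features, over brighter ones and with each locus counted once, and the phosphate carrier gene held 183 of 523, 127 of 373 and 135 of 406 in these orders. Of the 6 listed genes of the fixed lists, 1 had a difference of at least 2. No paired analysis was possible because the tables used here hold 1 average per group. Single arrays were not analysed here, and leaving out a replicate was not run. A low signal limits the exon feature of AOX1D that stayed at 5.75 in gold roots. In control roots alone, the AOX1D gene feature at 5.74 and its exon features at 3.66, 5.11 and 2.78 lay below 6. The same held for the PHT3;2 gene feature at 5.75 and for exon features of PHT3;2 at 5.89 and AOX1A at 4.27. Fold changes from such low control averages are less certain in size, and by how much was not tested.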

Other observations

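Words for respiration in the descriptions (mitochondria, ubiquinone, ubiquinol, cytochrome c, NADH or NAD(P)H dehydrogenase) were searched with the values in view. Outside the members they matched 1 gene feature and 18 exon features in 15 genes, of which 7 exon features in 6 genes were higher and 11 in 9 genes were lower in gold roots. Over all exon features 54.6% were higher, and no test was made of this count. NDA1, NDA2 and NDB4 are among these genes. So is NDH18, described as NAD(P)H dehydrogenase 18, with an exon feature at 2.96 in gold and 4.16 in control roots. A match by words does not show that a protein works in mitochondria. The gene feature belongs to AT5G26200, a mitochondrial substrate carrier, with 5.94 in gold and 4.24 in control roots, a low signal in both groups. Its exon feature had 8.12 in gold and 5.95 in control roots. Of the other genes with this description, AT2G46320 had an exon feature with 7.08 in gold and 5.54 in control roots. Lower in gold roots were exon features of AT3G20240, with 4.47 in gold and 5.96 in control roots, and AT1G74240, with 4.70 in gold and 6.37 in control roots. The exon feature of AT5G25450, subunit 7 of ubiquinol-cytochrome c reductase, averaged 8.60 in gold and 7.07 in control roots.

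Lower in gold roots were exon features of 2 subunits of succinate dehydrogenase, the enzyme that links the citric acid cycle to the ubiquinone pool. SDH1-2 had 8.56 and 8.04 in gold roots, against 9.69 and 9.47 in control roots. SDH2-3 had 3.46 in gold and 4.49 in control roots, a low signal in both groups. AT1G48510, a Surfeit locus 1 protein of cytochrome c oxidase biogenesis, had 5.58 and 5.84 in gold roots, against 6.74 and 7.24 in control roots. The largest fall among the matched features was that of AT2G34050, described as an assembly factor of mitochondrial ATP synthase. It had 2.48 in gold and 4.65 in control roots, a low signal in both groups. None of these genes with lower exon features had a listed gene feature. The tables held 0 gene and 0 exon features assigned to the mitochondrial genome.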
